A study of Mus musculus with 15 samples.

Results

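The genes of the matrix metalloproteinases (MMPs), the ADAM and ADAMTS metalloproteinases and the tissue inhibitors of metalloproteinases (TIMPs) were followed in the Lewis lung carcinoma line LL2 after loss of *KEAP1* or *NRF2*. They were taken by symbol, as every gene named *Mmp*, *Adam* or *Adamts* with a number (and a letter a or b for the first 2) and *Timp* with a number, which gave 79 of the 35880 gene symbols in the data (23 *Mmp*, 4 *Timp*, 33 *Adam* and 19 *Adamts* genes). RNA of 5 lines was sequenced in 3 biologic replicates each (15 samples). LL2 WT is the parental, luciferase-carrying mouse line LL2/Luc2. *KEAP1* KO #1, #2 and #3 and *NRF2* KO are each 1 clone grown from a single sorted cell of that line, after a plasmid with Cas9, GFP and a guide RNA against mouse *Keap1* or *Nfe2l2* (the gene of NRF2) was introduced. LL2 WT was not cloned in this way, so a difference between a clone and LL2 WT holds the edit and the choice of 1 cell together, and these cannot be told apart with 1 *NRF2* KO clone. All lines were grown without drug in complete DMEM, and KEAP1 is the adaptor through which NRF2, an activator of antioxidant genes, is normally marked for degradation.

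MMPs are zinc-dependent proteases that are made as inactive proenzymes and cut collagens, gelatin, proteoglycans and other matrix proteins, either after secretion or, for the membrane-type enzymes, at the cell surface. ADAMs are membrane-anchored relatives that release growth factors, cytokines and receptors from the surface, although some of them lack the catalytic zinc site, and ADAMTS enzymes are secreted and act on proteoglycans, procollagens and microfibrils. TIMPs bind and block these enzymes, and carcinoma cells and the stroma of lung tumors are both known sources of them.

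Values are CPM as deposited, reads scaled to a common total in each sample, given as mean ± SD over n = 3 samples where an error is shown. How many reads stand behind a sample is unknown, and 0.1 CPM served as a floor, the level of 3 reads at the average depth in the study's methods. Lines were compared by limma, run on log2(CPM + 0.1) in one model of the 5 lines and the 14652 genes that sum to 3 CPM or more, and log2 fold changes are on that scale, which understates the change of low genes. Calls needed both an absolute log2 fold change over 1 and an adjusted p under 0.05 (Benjamini-Hochberg, over all genes tested). The comparisons with LL2 WT share the LL2 WT samples.

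*Keap1* lay between 21.6 and 24.8 CPM in the LL2 WT and *NRF2* KO samples and between 3.78 and 12.5 CPM in the 9 *KEAP1* KO samples, and was called lower in *KEAP1* KO #2 and #3 but not in *KEAP1* KO #1. There its log2 fold change of −0.95 passed the p threshold (limma adjusted p = 0.00668) but not the fold threshold. *Nfe2l2* lay between 170 and 208 CPM in LL2 WT and between 102 and 146 CPM in *NRF2* KO, which was not called. In the 9 *KEAP1* KO samples it lay between 87.0 and 124 CPM. Its log2 fold change was −0.94, −0.59 and −0.67 in *KEAP1* KO #1, #2 and #3 and −0.66 in *NRF2* KO. All passed the p threshold (limma adjusted p from 0.000196 to 0.0301) but not the fold threshold. A lower *Nfe2l2* level was thus not particular to *NRF2* KO. Of the epithelial markers, *Epcam*, *Cdh1* and the lung identity gene *Nkx2-1* had means under the floor in every line, while the keratin genes *Krt8* and *Krt18* averaged 75.3 to 534 CPM, so the epithelial markers at high levels here were keratin genes. LL2 WT replicate 3 stood apart, with *Fos* at 173 CPM against 2.45 and 0.758 CPM in replicates 1 and 2. Replicate 3 was the highest of its line in all 5 lines for 13 of the 35 protease and inhibitor genes tested, against 20.5% of all genes tested. It was the lowest in all 5 lines for *Timp1* and *Timp2*, 2 of the 35, a smaller share than the 10% of all genes tested.

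Of the 79 genes, 26 reached 1 CPM on average in at least 1 line (10 *Mmp*, 2 *Timp*, 8 *Adam* and 6 *Adamts* genes), 14 did so in every line, and 8 reached 10 CPM in every line. These 8 were *Timp1*, *Timp2*, *Mmp3*, *Mmp14*, *Adam9*, *Adam10*, *Adam15* and *Adam17*. The sum filter passed 35 genes (12 *Mmp*, 3 *Timp*, 13 *Adam*, 7 *Adamts*), of which 9 stayed under 1 CPM in every line. The other 44 were not tested, and 12 of the 79 were listed at 0 in all samples. Divided by transcript length, the highest level in LL2 WT was that of *Timp1* (53.0 CPM per kb), followed by *Mmp3* (48.6 CPM per kb), *Mmp14* (38.2 CPM per kb) and *Adam9* (22.9 CPM per kb). Together the *Mmp* genes summed to 196 to 319 CPM in the LL2 WT samples, 128 to 189 CPM in *KEAP1* KO #1, 152 to 173 CPM in *KEAP1* KO #2, 209 to 229 CPM in *KEAP1* KO #3 and 185 to 234 CPM in *NRF2* KO. The samples of *KEAP1* KO #1 and #2 thus lay below every LL2 WT sample in summed *Mmp* level, while those of *KEAP1* KO #3 and *NRF2* KO overlapped them. *Mmp14* and *Mmp3* made most of these sums in every line, so the sums say little about the *Mmp* genes at lower levels.

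Against LL2 WT, 8 of the 35 tested genes were called in *KEAP1* KO #1, where 8.54% of all genes were, 11 in *KEAP1* KO #2 (13.7% of all genes) and 10 in *KEAP1* KO #3 (13.4% of all genes). In *KEAP1* KO #1, 2 were higher (4.55% of all genes) and 6 lower (3.99%), in *KEAP1* KO #2 4 were higher (5.94%) and 7 lower (7.75%), and in *KEAP1* KO #3 5 were higher (6.09%) and 5 lower (7.34%). The median log2 fold change of the 35 genes was −0.15, −0.23 and −0.03 in *KEAP1* KO #1, #2 and #3, beside 0.11, 0.03 and 0.02 for all genes. *Mmp10* was higher and *Adam19*, *Adam5*, *Adamts9* and *Adamts10* were lower in each of the 3 comparisons. That is 1 and 4 of the 35, beside 2.86% of all genes called higher and 2.63% called lower in all 3. In *NRF2* KO limma called 0 of the 35 (0.464% of all genes, 0.0887% higher and 0.375% lower), and 5 had an unadjusted p under 0.05 (11.2% of all genes). Other settings called 0 to 3 of the 35, and the share of all genes under these is not shown. The plot of fold changes gives every tested gene.

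**Figure D1:**
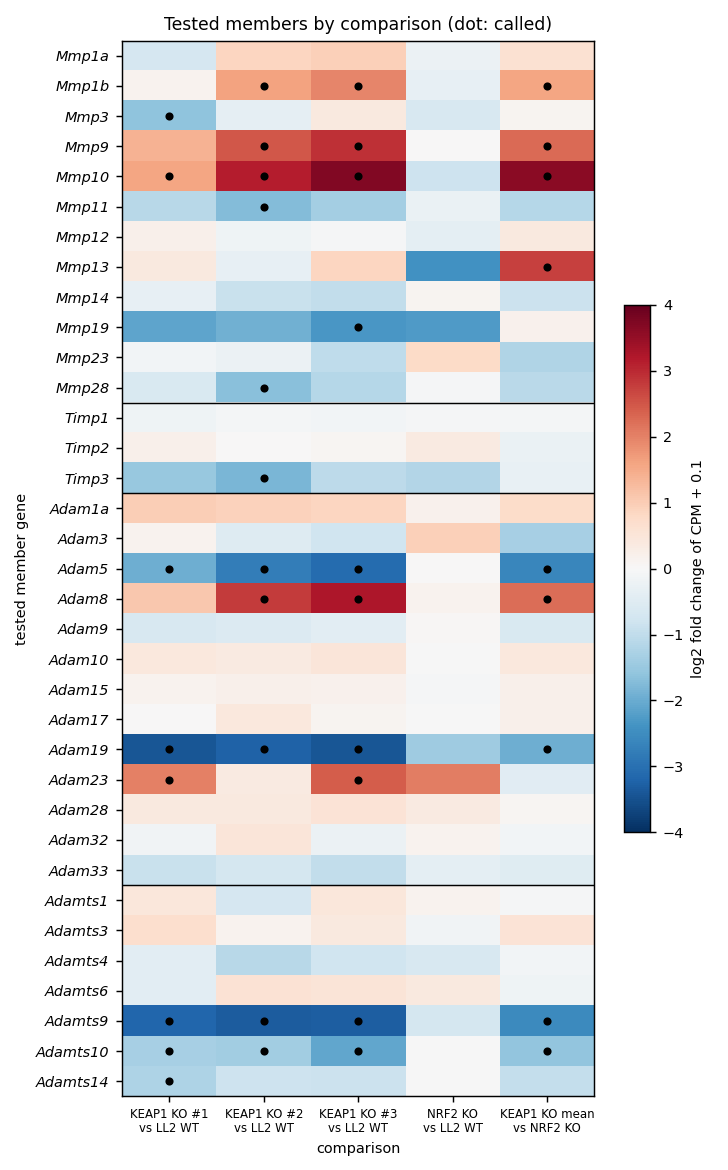
Color shows the log2 fold change of CPM + 0.1 for the 35 tested genes (rows, by family) in the 3 *KEAP1* KO clones and *NRF2* KO against LL2 WT and in the mean of the *KEAP1* KO clones against *NRF2* KO (columns), and a black dot marks a called gene. *Mmp10* is red and called in all 3 *KEAP1* KO columns (1.57, 3.15 and 3.70), *Adam19*, *Adam5*, *Adamts9* and *Adamts10* are blue and called there, and the *NRF2* KO column holds no dot.

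*Mmp10* rose in all 3 *KEAP1* KO clones. It encodes stromelysin-2, a secreted protease of proteoglycans, laminin and other proenzymes (GRCm38 chr9:7502352-7510240). *Mmp10* was at 1.37, 1.53 and 2.65 CPM in LL2 WT, at 2.75, 5.96 and 9.89 CPM in *KEAP1* KO #1, at 18.2, 17.7 and 14.0 CPM in *KEAP1* KO #2, at 23.4, 28.1 and 21.9 CPM in *KEAP1* KO #3 and at 0.853, 1.32 and 0.788 CPM in *NRF2* KO. Each of the 9 *KEAP1* KO samples exceeded the highest LL2 WT sample, and the 3 *NRF2* KO samples did not reach the lowest. Compared with LL2 WT, *Mmp10* rose on the log2 scale by 1.57 (SE 0.38, limma adjusted p = 0.00971), 3.15 (4.8e-05) and 3.70 (1.14e-05) in *KEAP1* KO #1, #2 and #3. It was −0.82 (adjusted p = 0.444) in *NRF2* KO. The rise also differed between the clones (moderated F test of limma, adjusted p = 0.00536), being larger than in *KEAP1* KO #1 by 1.58 in *KEAP1* KO #2 and by 2.13 in *KEAP1* KO #3 on the log2 scale. The call in *KEAP1* KO #1 was lost when only the lines compared entered the model (adjusted p = 0.0948), and was kept without any 1 of the 15 samples. In bulk RNA of this kind, fewer cells that make a transcript and less RNA per cell cannot be told apart.

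*Mmp10* is one of 10 *Mmp* genes that lie side by side on mouse chromosome 9 within 427.1 kb, 13.5 Mb from *Keap1*, and 6 of these 10 passed the sum filter. Promoters of *Mmp* genes of this cluster are known for a binding site of AP-1, the dimer of FOS and JUN family proteins, close to the start site. The 120 bases before a RefSeq start site (GRCm38.p6) are shown for the 6 tested cluster genes, written 5′ to 3′ on the gene's strand. The AP-1 motif TGANTCA is in capitals, with a single match in each stretch shown. For *Mmp12* the start site with a match was picked, and the promoter of its other, upstream start site (chr9:7344147-7344446) held none.
*Mmp10* (chr9:7502222-7502341, + strand): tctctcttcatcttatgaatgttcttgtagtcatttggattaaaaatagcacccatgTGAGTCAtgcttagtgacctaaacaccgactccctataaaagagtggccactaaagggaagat
*Mmp1b* (chr9:7388027-7388146, - strand): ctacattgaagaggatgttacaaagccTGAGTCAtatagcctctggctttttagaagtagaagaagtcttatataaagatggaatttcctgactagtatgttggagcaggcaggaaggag
*Mmp1a* (chr9:7464021-7464140, + strand): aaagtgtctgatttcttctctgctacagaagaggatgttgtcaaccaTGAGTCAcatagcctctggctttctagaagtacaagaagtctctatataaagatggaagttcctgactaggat
*Mmp3* (chr9:7445702-7445821, + strand): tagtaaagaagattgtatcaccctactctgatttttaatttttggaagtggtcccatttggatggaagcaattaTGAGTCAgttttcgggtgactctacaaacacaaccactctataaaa
*Mmp13* (chr9:7272394-7272513, + strand): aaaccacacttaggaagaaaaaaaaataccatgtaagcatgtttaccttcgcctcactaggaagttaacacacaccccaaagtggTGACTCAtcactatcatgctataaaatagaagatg
*Mmp12* (chr9:7347254-7347373, + strand): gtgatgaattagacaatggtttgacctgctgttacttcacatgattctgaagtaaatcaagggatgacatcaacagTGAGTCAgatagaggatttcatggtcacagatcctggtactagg
The motif began 63 bases before the start site in *Mmp10*, 93 in *Mmp1b*, 73 in *Mmp1a*, 46 in *Mmp3*, 35 in *Mmp13* and 44 in *Mmp12*. The stretch is alike in *Mmp1a* and *Mmp1b*, which are paralogs. Searched on both strands of 300 bases around each start site, TGANTCA was found for 8 of the 10 cluster genes and for 5 of the 39 other genes of these families with a promoter in RefSeq, and for 8.97% of all 27025 genes with one (7.81% of 32851 promoters). TGACNNNGC, the core of the antioxidant response element through which NRF2 acts, was found for 0 of the 10 cluster genes and 8 of the 39 others, among them *Timp2*, and for 14% of all genes (12.4% of promoters). The motifs overlap where TGACTCA is followed by GC. A match is a description of the letters, and 30 of the 79 genes had no entry.

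The neighbours in the cluster had unlike values. *Mmp3*, the gene of stromelysin-1, was at 80.5, 58.1 and 124 CPM in LL2 WT, at 17.2, 25.7 and 44.7 CPM in *KEAP1* KO #1, at 66.6, 67.7 and 61.9 CPM in *KEAP1* KO #2, at 129, 126 and 81.2 CPM in *KEAP1* KO #3 and at 51.0, 49.2 and 62.0 CPM in *NRF2* KO. *KEAP1* KO #1 lay below every LL2 WT sample, whereas *KEAP1* KO #2, *KEAP1* KO #3 and *NRF2* KO overlapped LL2 WT. *Mmp3* was called lower in *KEAP1* KO #1, with a log2 fold change of −1.62 (SE 0.32, limma adjusted p = 0.00293), beside −0.35 and 0.39 in *KEAP1* KO #2 and #3, which were not called. The 3 clones differed by up to 2.01 (F test, adjusted p = 0.00317). With only the lines compared in the model, the adjusted p for *KEAP1* KO #1 was 0.0555. *Mmp3* and *Mmp10* share 14.6% and 11.9% of the 31-base words of their transcripts, mostly with each other, so a small part of their reads could be assigned to either gene, and their opposite movement in *KEAP1* KO #1 was seen on estimated counts.

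Among the collagenases, *Mmp1b*, a mouse counterpart of the interstitial collagenase gene, was at 0.257, 0.192 and 0.412 CPM in LL2 WT, at 0.105, 0.491 and 0.479 CPM in *KEAP1* KO #1, at 1.27, 1.05 and 0.861 CPM in *KEAP1* KO #2, at 1.29, 1.97 and 0.978 CPM in *KEAP1* KO #3 and at 0.156, 0.294 and 0.164 CPM in *NRF2* KO. All samples of *KEAP1* KO #2 and #3 were above those of the other 3 lines. *Mmp1b* rose by 1.61 (limma adjusted p = 0.0123) in *KEAP1* KO #2 and by 1.95 (adjusted p = 0.00391) in *KEAP1* KO #3 on the log2 scale, while *KEAP1* KO #1 and LL2 WT overlapped (0.13). The call in *KEAP1* KO #2 was lost without its replicate 1 (1.48, adjusted p = 0.0518) and, with 0.5 or 1 CPM in place of 0.1 CPM added before the log, fell under the fold threshold (0.99 and 0.68), as did that in *KEAP1* KO #3 with 1 CPM (0.89). *Mmp1b* shares 20.7% of its 31-base words, most with *Mmp1a*, and overlaps *Mmp12* on the other strand. *Mmp1a* stayed under 1 CPM in every line and was not called in any comparison.

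*Mmp13*, the gene of collagenase-3, was at 4.16, 1.90 and 16.8 CPM in LL2 WT, at 3.78, 5.76 and 14.6 CPM in *KEAP1* KO #1, at 3.17, 3.46 and 6.27 CPM in *KEAP1* KO #2, at 8.47, 9.01 and 10.8 CPM in *KEAP1* KO #3 and at 0.686, 0.440 and 2.11 CPM in *NRF2* KO. Replicate 3 was highest in every line, and the LL2 WT samples spanned the whole range of the *KEAP1* KO samples. *Mmp13* was not called against LL2 WT in any clone, nor in *NRF2* KO (log2 fold change −2.42, SE 0.71, adjusted p = 0.202), where it was called with replicate 3 as a batch in the model (adjusted p = 0.00863). All 9 *KEAP1* KO samples were above every *NRF2* KO sample, and the mean of the *KEAP1* KO clones was higher than *NRF2* KO by 2.73 (SE 0.58, limma adjusted p = 0.00368). *Mmp12*, the gene of macrophage elastase, lay between 0.106 and 0.378 CPM in all samples and was not called. *Mmp8*, the neutrophil collagenase gene, and *Mmp7*, the matrilysin gene, were not tested, and *Mmp7* was listed at 0 in all samples.

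**Figure D2:**
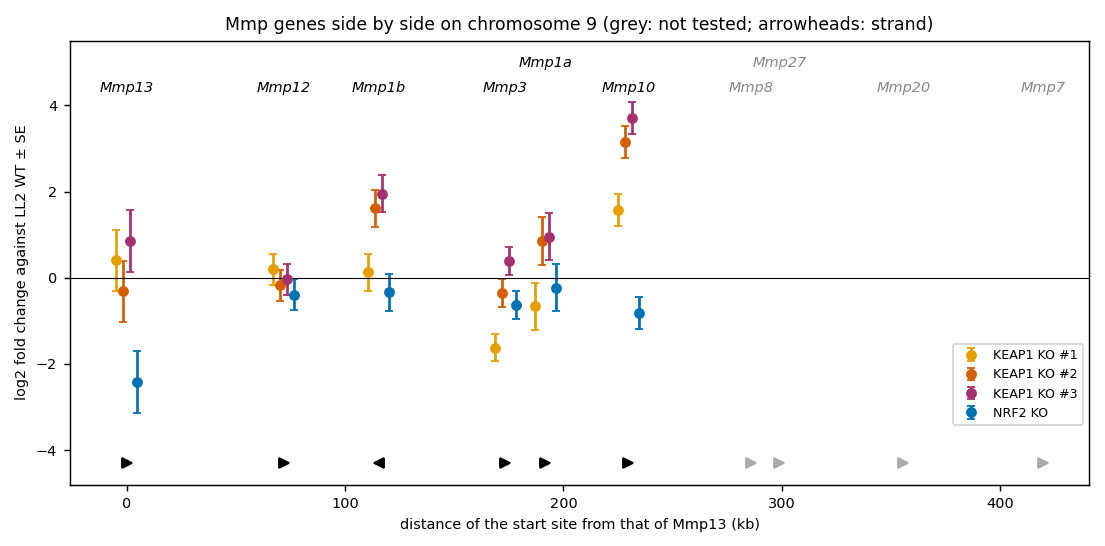
Points are log2 fold changes against LL2 WT with the standard error of limma (y axis) for the tested *Mmp* genes of the chromosome 9 cluster, placed by the distance of their start site from that of *Mmp13* in kb (x axis). *Mmp12* is placed at its upstream start site (71.9 kb), not at the one whose sequence is shown. *Mmp10* and *Mmp1b* lie above 0 in *KEAP1* KO #2 and #3, *Mmp3* lies below 0 in *KEAP1* KO #1, and *Mmp12* lies near 0 in all 4 lines.

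Of the gelatinases, *Mmp9* (gelatinase B) was at 0.0429, 0.0333 and 0.218 CPM in LL2 WT, at 0.215, 0.279 and 0.831 CPM in *KEAP1* KO #1, at 0.748, 0.527 and 1.89 CPM in *KEAP1* KO #2, at 0.701, 0.957 and 3.06 CPM in *KEAP1* KO #3 and at 0.0924, 0.0286 and 0.149 CPM in *NRF2* KO. Its levels in LL2 WT and *NRF2* KO were around the floor, and all samples of *KEAP1* KO #2 and #3 were above them. *Mmp9* rose by 2.48 (SE 0.62, limma adjusted p = 0.00894) in *KEAP1* KO #2 and by 2.93 (adjusted p = 0.00322) in *KEAP1* KO #3 on the log2 scale, and was 1.40 (adjusted p = 0.124) in *KEAP1* KO #1, where 1 sample overlapped LL2 WT. A difference between the clones did not pass the F test (adjusted p = 0.254), so a smaller change in *KEAP1* KO #1 was not shown, and with replicate 3 as a batch *Mmp9* was called there too (adjusted p = 0.00381). With 1 CPM added, the value in *KEAP1* KO #2 was 0.85 and not called. *Mmp2*, the gelatinase A gene, was not tested, and no sample passed 0.253 CPM.

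*Mmp14*, the membrane-type enzyme that activates proMMP2 and cuts fibrillar collagen, was the membrane-type gene with a level above the filter (1 of 6). *Mmp14* was at 112, 124 and 134 CPM in LL2 WT, at 94.6, 91.1 and 108 CPM in *KEAP1* KO #1, at 57.7, 65.1 and 76.0 CPM in *KEAP1* KO #2, at 55.7, 58.4 and 75.4 CPM in *KEAP1* KO #3 and at 130, 125 and 147 CPM in *NRF2* KO. The highest *KEAP1* KO sample did not reach the lowest LL2 WT sample. Its log2 fold change was −0.34 (adjusted p = 0.0865), −0.90 (SE 0.13, adjusted p = 0.000252) and −0.98 (limma adjusted p = 0.000132) in *KEAP1* KO #1, #2 and #3. The last 2 passed the p threshold but not the fold threshold, which was passed in *KEAP1* KO #2 without its replicate 3 (−1.01), and in *KEAP1* KO #3 without its replicate 3 (−1.11) or without LL2 WT replicate 1 (−1.04). With quantile normalization and all samples kept, *Mmp14* was called in both (−1.03 and −1.09). The clones differed by up to 0.64 (F test, adjusted p = 0.011).

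The remaining *Mmp* calls, in *Mmp19*, *Mmp11* and *Mmp28*, were lost on leaving out single samples. *Mmp19*, whose enzyme acts on basement membrane, was at 8.26, 3.40 and 19.1 CPM in LL2 WT, at 2.68, 0.846 and 2.57 CPM in *KEAP1* KO #1, at 1.58, 1.36 and 4.19 CPM in *KEAP1* KO #2, at 1.06, 1.07 and 3.24 CPM in *KEAP1* KO #3 and at 1.57, 0.687 and 3.63 CPM in *NRF2* KO. LL2 WT held the highest mean, and the samples of the clones lay below every LL2 WT sample except 1 sample each of *KEAP1* KO #2 and *NRF2* KO, which passed the lowest LL2 WT sample. *Mmp19* was called in *KEAP1* KO #3 (log2 fold change −2.32, SE 0.73, limma adjusted p = 0.0286) and not in the others, at −2.11 (adjusted p = 0.054) and −1.91 (0.0622) in clones #1 and #2 and −2.28 (0.243) in *NRF2* KO. With replicate 3 as a batch it was called in these 3 as well (adjusted p = 0.00193, 0.00263 and 0.0145). *KEAP1* KO #3 was no longer called with no filter on low values (adjusted p = 0.0563) or only the lines compared (0.0698), nor without LL2 WT replicate 1 (−2.31), LL2 WT replicate 3 (−1.71), *KEAP1* KO #3 replicate 1 (−2.06) or *KEAP1* KO #3 replicate 2 (−2.07). A call was gained in *KEAP1* KO #1 without LL2 WT replicate 2 (−2.73), and, at −2.11, without *KEAP1* KO #3 replicate 3 or *NRF2* KO replicate 2 or 3. In *KEAP1* KO #2 a call was gained without LL2 WT replicate 2 (−2.53), *KEAP1* KO #2 replicate 3 (−2.40) or *NRF2* KO replicate 3 (−1.91).

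*Mmp11*, the gene of stromelysin-3, and *Mmp28*, the gene of epilysin, were called lower in *KEAP1* KO #2. *Mmp11* had means of 8.40 ± 4.62 CPM (LL2 WT), 3.66 ± 1.24 (*KEAP1* KO #1), 2.50 ± 1.61 (*KEAP1* KO #2), 3.87 ± 3.72 (*KEAP1* KO #3) and 6.81 ± 3.49 CPM (*NRF2* KO), with a log2 fold change of −1.75 (limma adjusted p = 0.0464) in *KEAP1* KO #2. *Mmp28* had means of 2.52 ± 1.78 CPM (LL2 WT), 1.31 ± 0.153 (*KEAP1* KO #1), 0.585 ± 0.199 (*KEAP1* KO #2), 0.958 ± 0.568 (*KEAP1* KO #3) and 2.27 ± 1.51 CPM (*NRF2* KO), and its log2 fold change there was −1.68 (adjusted p = 0.0441). A difference between the clones did not pass the F test for *Mmp11* (adjusted p = 0.8) or *Mmp28* (adjusted p = 0.484). Both calls in *KEAP1* KO #2 were lost with no filter (adjusted p = 0.0863 and 0.0855), with vooma weights (0.0504 and 0.0717) and with only the lines compared (0.0656 and 0.104), and that of *Mmp28* also with 0.5 or 1 CPM added (0.0501 and 0.0551). With replicate 3 as a batch *Mmp11* was called in *KEAP1* KO #1 and #3 (adjusted p = 0.0101 and 0.00228) and *Mmp28* in *KEAP1* KO #3 (0.0387). The calls in *KEAP1* KO #2 were also lost in 9 of the 15 fits that left out 1 sample. Those were, for *Mmp11*, LL2 WT replicates 1 (−1.84) and 3 (−1.33), *KEAP1* KO #2 replicates 1 (−1.41) and 2 (−1.61), and, at −1.75, all replicates of *KEAP1* KO #1 and *NRF2* KO replicates 1 and 2. For *Mmp28* they were LL2 WT replicates 1 (−1.55) and 3 (−1.15), *KEAP1* KO #2 replicates 1 (−1.60) and 2 (−1.53), and, at −1.68, all replicates of *KEAP1* KO #1, *KEAP1* KO #3 replicate 2 and *NRF2* KO replicate 1. In *KEAP1* KO #3 a call was gained for *Mmp11* without replicate 3 of that clone (−2.09) and for *Mmp28* without LL2 WT replicate 2 (−1.81).

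Among the inhibitors, *Timp1* and *Timp2* held high levels in every line. *Timp1* was at 45.4, 49.8 and 45.2 CPM in LL2 WT, at 45.9, 43.0 and 35.7 CPM in *KEAP1* KO #1, at 45.6, 48.3 and 39.7 CPM in *KEAP1* KO #2, at 44.2, 48.2 and 37.2 CPM in *KEAP1* KO #3 and at 45.1, 54.5 and 38.2 CPM in *NRF2* KO. The lines overlapped, and the absolute log2 fold changes against LL2 WT were at most 0.18 with standard errors of 0.14. *Timp2*, which takes part in the activation of proMMP2 by MMP14, had means of 56.0 ± 25.4 CPM (LL2 WT), 60.3 ± 8.77 (*KEAP1* KO #1), 53.8 ± 16.7 (*KEAP1* KO #2), 54.9 ± 9.15 (*KEAP1* KO #3) and 71.2 ± 33.1 CPM (*NRF2* KO). LL2 WT replicate 3 (28.8 CPM) was the lowest *Timp2* sample of all, and the sign of the small differences in the *KEAP1* KO clones, 0.22, 0.01 and 0.08, turned without it (−0.20, −0.41 and −0.34). In *KEAP1* KO #2 it also turned with CPM rescaled by median ratios (−0.01) and with quantile normalization (−0.07), and none of these values passed the test.

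*Timp3*, the matrix-bound inhibitor that also blocks ADAM17, was low. *Timp3* was at 0.470, 0.831 and 1.44 CPM in LL2 WT, at 0.332, 0.169 and 0.201 CPM in *KEAP1* KO #1, at 0.144, 0.00719 and 0.581 CPM in *KEAP1* KO #2, at 0.297, 0.250 and 0.561 CPM in *KEAP1* KO #3 and at 0.208, 0.195 and 0.679 CPM in *NRF2* KO. The samples of *KEAP1* KO #1 lay below every LL2 WT sample, and 1 sample of each other clone did not. It was called lower in *KEAP1* KO #2 (log2 fold change −1.84, SE 0.63, limma adjusted p = 0.0397), with −1.52 (adjusted p = 0.0999) in *KEAP1* KO #1 and −1.05 (adjusted p = 0.225) in *KEAP1* KO #3. The call was lost without LL2 WT replicate 2 (−1.85) or 3 (−1.48), *KEAP1* KO #1 replicate 3 (−1.84), or *KEAP1* KO #2 replicate 1 (−1.79) or 2 (−1.20). It was also lost with 0.5 or 1 CPM added (−0.94 and −0.62), with no filter (adjusted p = 0.0694) and with only the lines compared (0.127), while with replicate 3 as a batch *Timp3* was called in *KEAP1* KO #1 (adjusted p = 0.0211), as with quantile normalization (0.0497). *Timp3* overlaps *Syn3* on the other strand, and *Timp4* was not tested, with no sample above 0.0457 CPM.

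**Figure D3:**
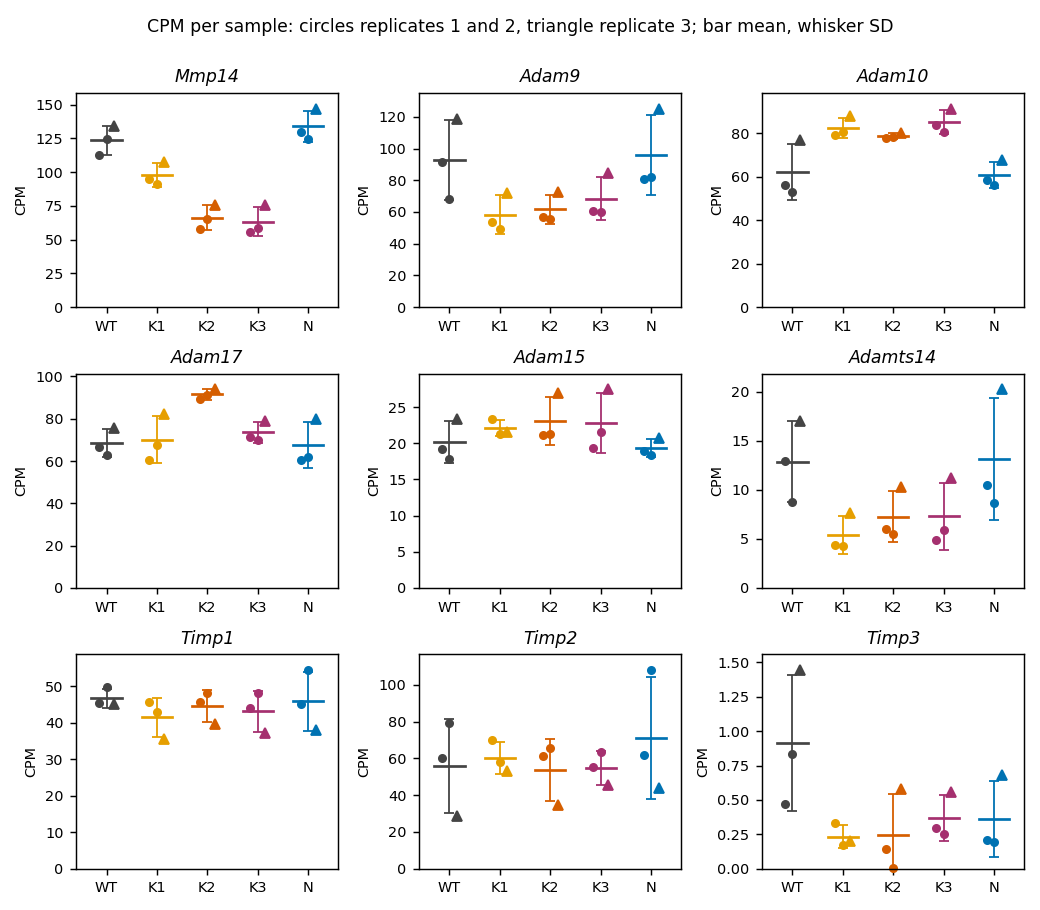
Points are CPM per sample (y axis, linear from 0) in LL2 WT (WT), *KEAP1* KO #1 to #3 (K1 to K3) and *NRF2* KO (N) for 9 genes, with circles for replicates 1 and 2, triangles for replicate 3, bars for the mean and whiskers for the SD over 3 samples. *Mmp14* falls below LL2 WT in all *KEAP1* KO samples, *Adam10* lies above it, and *Timp1* stays between 35.7 and 54.5 CPM.

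Among the ADAMs, *Adam8*, a sheddase gene best known from leukocytes, rose in *KEAP1* KO #2 and #3. *Adam8* was at 0.617, 0.576 and 0.948 CPM in LL2 WT, at 1.38, 0.938 and 2.97 CPM in *KEAP1* KO #1, at 3.70, 4.07 and 10.9 CPM in *KEAP1* KO #2, at 5.58, 5.77 and 12.5 CPM in *KEAP1* KO #3 and at 0.684, 0.993 and 0.713 CPM in *NRF2* KO. Every sample of *KEAP1* KO #2 and #3 was above every sample of the other lines, *KEAP1* KO #1 overlapped LL2 WT by 1 sample, and replicate 3 was highest in the 3 *KEAP1* KO clones. On the log2 scale the difference was 1.07 (adjusted p = 0.12, or 0.0144 with replicate 3 as a batch) in *KEAP1* KO #1, 2.81 (SE 0.47, limma adjusted p = 0.000659) in *KEAP1* KO #2 and 3.23 (adjusted p = 0.000224) in *KEAP1* KO #3. The clones differed by up to 2.16 (F test, adjusted p = 0.0169), which was lost without *KEAP1* KO #1 replicate 1 (2.07) or 2 (1.81) and with only the lines compared (adjusted p = 0.0519).

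*Adam8* and *Mmp9* followed each other closely, with r = 0.95 over the 15 samples, which share lines and replicate 3, and both are known from myeloid cells. Of 6 macrophage and leukocyte markers, *Cd68* moved with them, with means of 2.85 ± 1.39 CPM (LL2 WT), 6.49 ± 2.37 (*KEAP1* KO #1), 13.8 ± 7.59 (*KEAP1* KO #2), 22.0 ± 12.6 (*KEAP1* KO #3) and 2.47 ± 0.67 CPM (*NRF2* KO). The summed level of the 6 markers ran from 3.03 to 5.30 CPM (LL2 WT), 5.64 to 10.16 (*KEAP1* KO #1), 9.58 to 22.9 (*KEAP1* KO #2), 14.4 to 37.4 (*KEAP1* KO #3) and 3.66 to 5.80 CPM (*NRF2* KO). *Cd68* made nearly all of the rise in this sum, with 36.5 of the 37.4 CPM in *KEAP1* KO #3 replicate 3. Only 3 of the 6 were tested, and of these *Cd68* alone was called higher, in *KEAP1* KO #2 and #3 (5.94% and 6.09% of all genes). *Csf1r* was higher by 0.48, 1.34 and 0.77 on the log2 scale in *KEAP1* KO #1, #2 and #3 and was not called. *Ptprc* was not tested, with means of 0.0445 (LL2 WT), 0.124, 0.108 and 0.0861 (*KEAP1* KO #1 to #3) and 0.0505 CPM (*NRF2* KO). *Adgre1* was listed at 0 in all samples, the mean of *Itgam* stayed under the floor in every line, and *Lyz2* was called lower in *KEAP1* KO #2 and #3. The part of these markers in the *Adam8* and *Mmp9* values was not tested.

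The neuregulin sheddase gene *Adam19* fell to the floor in the *KEAP1* KO clones. *Adam19* was at 0.943, 0.678 and 1.74 CPM in LL2 WT, at 0.368, 0.177 and 0.514 CPM in *NRF2* KO, and at 0.054 CPM or less in all 9 *KEAP1* KO samples, 4 of which were listed at 0. The level in each *KEAP1* KO clone was at least 11.2-fold lower than in LL2 WT, against the floor of 3 reads per sample, and the *NRF2* KO samples did not reach the lowest LL2 WT sample either. Its log2 fold change was −3.42, −3.24 and −3.42 in *KEAP1* KO #1, #2 and #3 (SE 0.42, limma adjusted p from 5.08e-05 to 0.000109) and −1.41 (adjusted p = 0.203) in *NRF2* KO. These fitted values depend on the 0.1 added to the CPM.

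*Adam5*, an ADAM gene mainly known from testis, was at 1.297, 1.11 and 1.53 CPM in LL2 WT, at 0.265, 0.190 and 0.354 CPM in *KEAP1* KO #1, at 0.0501, 0.109 and 0.173 CPM in *KEAP1* KO #2, at 0, 0.0159 and 0.307 CPM in *KEAP1* KO #3 and at 0.855, 1.32 and 1.97 CPM in *NRF2* KO. No *KEAP1* KO sample reached the LL2 WT or *NRF2* KO samples. Its log2 fold change was −1.95 (limma adjusted p = 0.0135), −2.78 (0.00104) and −3.06 (0.00049) in the 3 clones. Without *KEAP1* KO #1 replicate 2 the value for that clone was −1.79 and not called (adjusted p = 0.0572), and with 1 CPM added it was −0.86, under the fold threshold.

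*Adam23*, which encodes a surface protein without a working protease site, separated the clones. *Adam23* was at 0.489, 0.656 and 0.0987 CPM in LL2 WT, at 1.74, 1.40 and 2.03 CPM in *KEAP1* KO #1, at 0.278, 0.534 and 0.662 CPM in *KEAP1* KO #2, at 1.81, 1.95 and 3.28 CPM in *KEAP1* KO #3 and at 1.36, 1.80 and 2.15 CPM in *NRF2* KO. *KEAP1* KO #2 overlapped LL2 WT, and the other 3 clones, *NRF2* KO included, lay above both. Against LL2 WT *Adam23* differed on the log2 scale by 2.02 (limma adjusted p = 0.00662), 0.35 and 2.41 (adjusted p = 0.00138) in *KEAP1* KO #1, #2 and #3 and by 2.05 (SE 0.45, adjusted p = 0.068) in *NRF2* KO. The value in *NRF2* KO was called without LL2 WT replicate 2 (2.43, adjusted p = 0.0329). The *KEAP1* KO clones differed by up to 2.06 (F test, adjusted p = 0.0169), which was lost without *KEAP1* KO #2 replicate 1 (1.77, adjusted p = 0.0872), and with only the lines compared in the model the call in *KEAP1* KO #1 was lost (adjusted p = 0.0614), as with 1 CPM added (0.96).

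The abundant sheddase genes changed by less. *Adam10*, which releases the Notch and amyloid precursor ectodomains, was at 56.1, 53.2 and 77.2 CPM in LL2 WT and between 78.0 and 91.4 CPM in all *KEAP1* KO samples, which lay above every LL2 WT sample, while *NRF2* KO (60.8 ± 5.89 CPM) overlapped LL2 WT. *Adam10* was 0.43, 0.36 and 0.47 higher on the log2 scale in *KEAP1* KO #1, #2 and #3 (SE 0.12, limma adjusted p = 0.0259, 0.041 and 0.0115), under the fold threshold. *Adam17*, the gene of the TNF-converting enzyme, had means of 68.5 ± 6.53 CPM (LL2 WT), 70.1 ± 11.1 (*KEAP1* KO #1), 91.5 ± 2.38 (*KEAP1* KO #2), 73.5 ± 4.79 (*KEAP1* KO #3) and 67.5 ± 10.9 CPM (*NRF2* KO). In *KEAP1* KO #2 all samples of *Adam17* were above LL2 WT (0.42, adjusted p = 0.0244). *Adam9*, a sheddase gene of epithelial and tumor cells, had means of 92.7 ± 25.4 CPM (LL2 WT), 58.4 ± 12.07 (*KEAP1* KO #1), 61.7 ± 9.35 (*KEAP1* KO #2), 68.4 ± 13.7 (*KEAP1* KO #3) and 96.0 ± 25.3 CPM (*NRF2* KO), with values of −0.65, −0.56 and −0.42 that did not pass the test against LL2 WT. *Adam15* lay between 17.8 and 27.4 CPM in all samples and was not called, and *Adam12* was not tested, with no sample above 0.284 CPM.

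Among the ADAMTS genes, *Adamts9*, whose enzyme cuts versican and aggrecan, fell in all 3 *KEAP1* KO clones. *Adamts9* was at 2.21, 1.12 and 2.74 CPM in LL2 WT, at 0.163, 0.0837 and 0.124 CPM in *KEAP1* KO #1, at 0.0668, 0.0513 and 0.205 CPM in *KEAP1* KO #2, at 0.0784, 0.0655 and 0.192 CPM in *KEAP1* KO #3 and at 1.12, 0.562 and 2.17 CPM in *NRF2* KO. The *KEAP1* KO samples lay around the floor, below all LL2 WT and *NRF2* KO samples. Its log2 fold change was −3.18, −3.34 and −3.29 in *KEAP1* KO #1, #2 and #3 (SE 0.49, limma adjusted p from 0.000223 to 0.000559) and −0.71 (adjusted p = 0.656) in *NRF2* KO.

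*Adamts10*, whose product acts in fibrillin microfibrils, was at 11.6, 9.52 and 11.7 CPM in LL2 WT, at 4.48, 3.21 and 5.29 CPM in *KEAP1* KO #1, at 4.38, 3.08 and 5.15 CPM in *KEAP1* KO #2, at 1.61, 2.53 and 3.78 CPM in *KEAP1* KO #3 and at 9.47, 8.35 and 15.5 CPM in *NRF2* KO. The *KEAP1* KO samples were below all LL2 WT and *NRF2* KO samples, and the latter overlapped each other. Its log2 fold change was −1.34 (SE 0.32, limma adjusted p = 0.0086), −1.38 (0.00505) and −2.08 (0.000287) in the 3 clones. The calls of *Adam19*, *Adamts9* and *Adamts10* in the 3 clones were kept without any 1 of the 15 samples.

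*Vim*, the vimentin gene, was called lower in the same 3 clones as *Adam19*, *Adamts9* and *Adamts10*. Of 8 fibroblast and mesenchymal markers, 7 were tested. In *KEAP1* KO #1 *Vim* alone was called lower (1 of 7, beside 3.99% of all genes) and *Pdgfrb* higher. In *KEAP1* KO #2, 4 were called lower (7.75% of all genes), and in *KEAP1* KO #3 5 (7.34%), among them *Col1a1*, *Col1a2* and *Pdgfrb* in both. *Vim* ran from 3447 to 5427 CPM in LL2 WT, from 1534 to 2029 CPM in the *KEAP1* KO samples and from 3130 to 4289 CPM in *NRF2* KO, and made most of the summed level of the list, which ran from 3456 to 5449 CPM in LL2 WT, 1540 to 2043 CPM over the *KEAP1* KO samples and 3136 to 4301 CPM in *NRF2* KO. *Lum* had means under the floor in every line, and the means of *Col1a1*, *Col1a2* and *Dcn* were under 1 CPM in every line. The part of these markers in the protease values was not tested.

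Of the other proteoglycanase genes, *Adamts1* had means of 3.84 ± 1.16 CPM (LL2 WT), 5.27 ± 1.68 (*KEAP1* KO #1), 2.35 ± 0.591 (*KEAP1* KO #2), 5.24 ± 1.44 (*KEAP1* KO #3) and 4.23 ± 1.39 CPM (*NRF2* KO). It was not called against LL2 WT but differed by up to 1.12 between the *KEAP1* KO clones (F test of limma, adjusted p = 0.0379), with the samples of *KEAP1* KO #2 below those of the other 2 clones. This call was lost with 0.5 or 1 CPM added (0.999 and 0.89), with no filter (adjusted p = 0.0668), with vooma weights (0.0559) and in 7 of the 15 fits that left out 1 sample, namely *KEAP1* KO #1 replicate 2 (1.14) or 3 (1.12), *KEAP1* KO #2 replicate 1 (1.00) or 2 (1.04), *KEAP1* KO #3 replicate 2 (1.17) or 3 (1.11) and *NRF2* KO replicate 1 (1.12). *Adamts4*, an aggrecanase gene, lay between 0.168 and 1.15 CPM and was not called, and *Adamts5* was not tested, with no sample above 0.0184 CPM.

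Of the procollagen N-proteinase genes, *Adamts14* had means of 12.9 ± 4.13 CPM (LL2 WT), 5.43 ± 1.94 (*KEAP1* KO #1), 7.27 ± 2.62 (*KEAP1* KO #2), 7.30 ± 3.39 (*KEAP1* KO #3) and 13.1 ± 6.23 CPM (*NRF2* KO). It was called lower in *KEAP1* KO #1 (−1.23, SE 0.40, limma adjusted p = 0.041), with −0.82 and −0.85 in *KEAP1* KO #2 and #3, and a difference between the clones did not pass the F test (adjusted p = 0.764). The call was lost with no filter (adjusted p = 0.0735), with vooma weights (0.0516), with only the lines compared (0.0644) and in 7 of the 15 fits that left out 1 sample, namely LL2 WT replicate 1 (−1.21) or 3 (−1.01), *KEAP1* KO #1 replicate 1 (−1.10) or 2 (−1.09) and, at −1.23, *KEAP1* KO #2 replicate 1, *KEAP1* KO #3 replicate 2 or *NRF2* KO replicate 1. In *KEAP1* KO #3 it was gained without replicate 3 of that clone (−1.20).

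**Figure D4:**
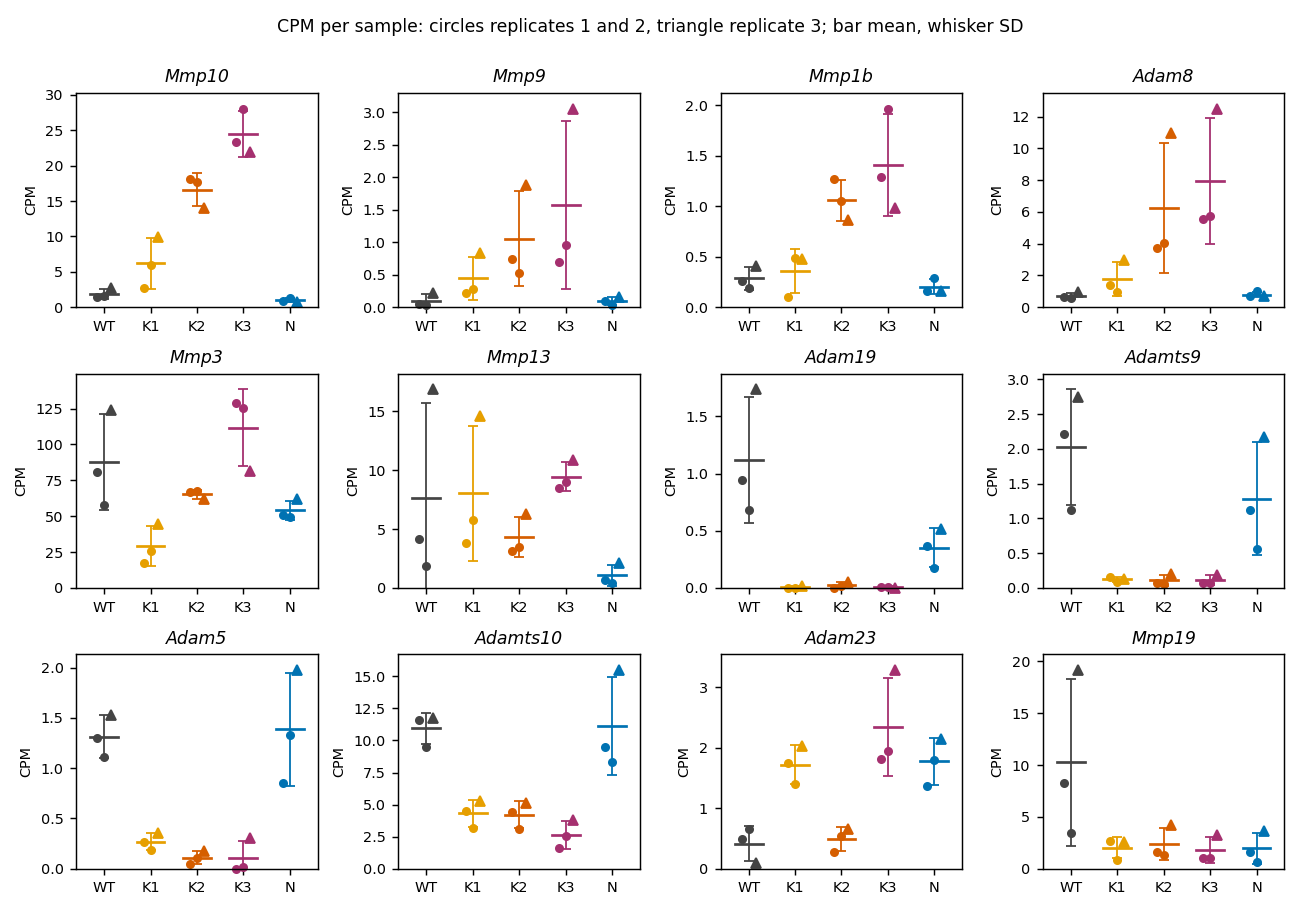
Points are CPM per sample (y axis, linear from 0, so that a whisker that would pass below 0 ends there) in LL2 WT (WT), *KEAP1* KO #1 to #3 (K1 to K3) and *NRF2* KO (N) for 12 genes, with circles for replicates 1 and 2, triangles for replicate 3, bars for the mean and whiskers for the SD over 3 samples. *Mmp10* climbs from a mean of 1.85 CPM in LL2 WT to 24.5 CPM in *KEAP1* KO #3, and *Adam19*, *Adamts9* and *Adam5* lie near 0 in the *KEAP1* KO clones, below every *NRF2* KO sample.

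The mean of the 3 *KEAP1* KO clones was set against *NRF2* KO, a contrast without the LL2 WT samples in which both sides are sorted clones. The p-values of this contrast measure the spread between replicates within a line, not between clones, and *NRF2* KO is 1 clone. The edit and the choice of 1 cell thus cannot be told apart here either. Of the 35 genes, 9 were called (9.94% of all genes), 5 of them higher (5.19% of all genes) and 4 lower (4.75%), and the median log2 difference was −0.10 beside −0.0029 for all genes. The higher genes were *Mmp10* (3.62, limma adjusted p = 1.93e-06), *Mmp13* (2.73), *Mmp9* (2.26), *Adam8* (2.22) and *Mmp1b* (1.57). In *Adam8* and *Mmp1b* the samples of *KEAP1* KO #1 overlapped *NRF2* KO, while all samples of *KEAP1* KO #2 and #3 lay above it. The lower genes were *Adam5* (−2.61, adjusted p = 0.000379), *Adamts9* (−2.56), *Adam19* (−1.95) and *Adamts10* (−1.58). *Mmp14* was lower by 0.86 (adjusted p = 7.48e-05) and *Adam10* higher by 0.44 (adjusted p = 0.00648), both under the fold threshold. With 0.5 CPM in place of 0.1 CPM added before the log, *Mmp1b* (0.94) and *Adam19* (−0.72) fell under the fold threshold, and with 1 CPM *Mmp9* (0.79), *Mmp1b* (0.64), *Adam19* (−0.41) and *Adamts9* (−0.98) did.

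Between the 3 *KEAP1* KO clones, 6 of the 35 genes were called in the F test of limma, where 5.58% of all genes were: *Mmp10*, *Mmp3*, *Mmp1b*, *Adam8*, *Adam23* and *Adamts1*. For *Mmp10*, *Mmp3*, *Mmp1b* and *Adam8*, *KEAP1* KO #1 had the lowest mean, and *KEAP1* KO #2 and #3 were above it by 1.58 and 2.13, 1.27 and 2.01, 1.48 and 1.82, and 1.74 and 2.16 on the log2 scale, with adjusted p from 0.00156 to 0.0425. For these 4 genes no difference between *KEAP1* KO #2 and #3 passed the test (adjusted p from 0.536 to 0.988). For *Adam23* and *Adamts1*, *KEAP1* KO #2 had the lowest mean. The difference in *Mmp1b* was lost without *KEAP1* KO #1 replicate 1 (1.32) or *KEAP1* KO #3 replicate 1 (1.86) or 2 (1.57), and with 1 CPM added (0.82). *Keap1* itself averaged 11.8 ± 0.889 CPM in *KEAP1* KO #1, against 5.53 ± 1.57 and 5.58 ± 1.59 CPM in *KEAP1* KO #2 and #3, and its part in these differences was not tested.

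As a description over the 26 genes with 1 CPM in a line, the pairs with the most alike log2 levels over the 15 samples were *Adam9* and *Adamts14* (r = 0.97), *Adam19* and *Adamts9* (r = 0.96), *Adam5* and *Mmp14* (r = 0.95) and *Adam8* and *Mmp9* (r = 0.95), followed by *Adam5* and *Adamts10* (r = 0.95) and *Mmp10* and *Mmp1b* (r = 0.93). The samples of a pair share libraries, lines and replicate number. *Mmp14*, though it was not called, thus had a profile over the samples close to that of *Adam5*.

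Of 22 genes that activate, traffic, inhibit or take up these proteases, 17 were tested, and 3, 2 and 3 were called in *KEAP1* KO #1, #2 and #3, all named here (17.6%, 11.8% and 17.6% of the 17, beside 8.54%, 13.7% and 13.4% of all genes). *Reck*, a membrane-anchored inhibitor of MMPs, averaged 1.39 ± 0.993 CPM in LL2 WT and was called lower in *KEAP1* KO #2 (0.252 ± 0.15 CPM, log2 fold change −1.96, adjusted p = 0.0128) and *KEAP1* KO #3 (0.122 ± 0.0606 CPM, −2.58, adjusted p = 0.00246). *Adamtsl3*, an ADAMTS-like protein gene without a protease domain, had means of 10.6 ± 3.83 CPM (LL2 WT), 2.13 ± 0.626 (*KEAP1* KO #1), 1.61 ± 0.188 (*KEAP1* KO #2), 1.39 ± 0.628 (*KEAP1* KO #3) and 14.0 ± 3.53 CPM (*NRF2* KO), with log2 fold changes of −2.24, −2.58 and −2.85 in the *KEAP1* KO clones (adjusted p from 4.15e-05 to 0.00053). In *KEAP1* KO #1 the proprotein convertase gene *Pcsk6* was higher (1.41, adjusted p = 7.64e-05) and *Lrp1*, an uptake receptor for several of these proteases, lower (−2.24, adjusted p = 0.00744). In *KEAP1* KO #3 *Rhbdf2*, which guides ADAM17 to the surface, was higher (1.01, adjusted p = 0.0433). The clones not called went the same way for *Lrp1* (−1.31 and −1.13 in #2 and #3), *Rhbdf2* (0.44 and 0.77 in #1 and #2) and *Reck* (−1.02 in #1). A difference between the clones passed the F test for *Pcsk6* (adjusted p = 0.000267) but not for *Lrp1* (0.312), *Rhbdf2* (0.561) or *Reck* (0.154). *Furin*, *Bsg* and the *Adam10* partner *Tspan5* were not called in any line. *Tspan5* passed the p threshold but not the fold threshold in *KEAP1* KO #2 (0.47, limma adjusted p = 0.0119) and #3 (0.61, 0.00266). The same held for *Frmd8* (0.41, 0.51 and 0.65) and *Pcsk7* (0.51, 0.36 and 0.42) in *KEAP1* KO #1, #2 and #3. It also held for *Tspan14* (−0.48) and *Adamtsl5* (−0.60) in *KEAP1* KO #1. In *KEAP1* KO #3 it held for *Rhbdf1* (−0.55) and *Pcsk6* (0.73), and in *NRF2* KO for *Pcsk6* (−0.98).

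Of 11 AP-1, ETS and RUNX factors known to act at *Mmp* promoters, all were tested, and 1, 2 and 2 were called in *KEAP1* KO #1, #2 and #3 by limma (9.09%, 18.2% and 18.2% of the 11, beside 8.54%, 13.7% and 13.4% of all genes). *Ets2* rose in all 3 clones, from 5.61, 4.80 and 7.15 CPM in LL2 WT to between 15.6 and 23.0 CPM in the 9 *KEAP1* KO samples, none of which overlapped LL2 WT, and differed from LL2 WT by 1.72, 1.49 and 1.77 on the log2 scale (adjusted p from 9.35e-06 to 4.16e-05). *Jun* was at 61.2, 52.9 and 131 CPM in LL2 WT. It was lower by 1.15 (limma adjusted p = 0.0192) in *KEAP1* KO #2 and by 1.21 (adjusted p = 0.0149) in *KEAP1* KO #3. In *KEAP1* KO #1 *Jun* was at −0.85 and not called (adjusted p = 0.0836). A difference in *Jun* between the clones did not pass the F test (adjusted p = 0.762). *Fosl1* had means of 94.3 ± 30.2 CPM (LL2 WT), 95.4 ± 19.0 (*KEAP1* KO #1), 161 ± 23.7 (*KEAP1* KO #2), 147 ± 17.7 (*KEAP1* KO #3) and 91.5 ± 38.9 CPM (*NRF2* KO) and was not called. In *KEAP1* KO #2 *Fosl1* passed the p threshold (0.81, adjusted p = 0.0397) but not the fold threshold. *Jund* went the other way from *Jun*, at 0.60, 0.71 and 0.91 in *KEAP1* KO #1, #2 and #3. It passed the p threshold alone in *KEAP1* KO #2 (limma adjusted p = 0.0244) and #3 (0.00614). The part of these factors in the *Mmp* values was not tested.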

How the data were processed

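RNA of 15 samples (5 lines, 3 biologic replicates each) was analysed. The authors sequenced poly(A) RNA libraries, demultiplexed the reads with bcl2fastq (v1.9.0 in the submitters' processing notes), assigned them to transcripts with Kallisto by pseudo-alignment and deposited CPM, estimated counts scaled to a common total and summed to gene symbols. The study's methods name the cDNA of GRCm38.p6 and the labels GRCm39, and the deposited values hold no coordinates, so positions here are those of GRCm38 (GENCODE M21, RefSeq GRCm38.p6). Each sample's values add up to 999412 to 999525 CPM and are fractional, so reads could not be recovered and depth is unknown. The floor of 0.1 CPM is 3 reads at the average depth given in the methods, and covers counting error only. A row without a symbol (0.0214% to 0.0491% of a sample) was left out, and no samples were identical.

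With limma 3.58.1 in R 4.3.3, log2(CPM + 0.1) was compared for genes that sum to 3 CPM or more (a mean per line, empirical Bayes with a trend, Benjamini-Hochberg adjustment over 14652 genes). The fits were tested on simulated data. Python 3.11.15 and matplotlib 3.10.9 were used for figures and sequences. The alternatives were other pseudocounts, filters, scalings and weights, only the lines compared, a replicate block, replicate 3 as a batch, no fold threshold and each sample left out. A fit of replicates 1 and 2 alone was chosen after seeing the data. The genes and lists were chosen with earlier results of these data known. Named were genes at 1 CPM or more in a line that were called against LL2 WT, 20 genes named whatever they did, those called between the clones, and called members of the lists. A split of ADAM genes by their zinc-binding motif was not made, because protein sequences were not used here. Transcript lengths are those of the longest coding transcript. Shared sequence was measured as the percent of the 31-base words of a gene's transcripts that occur in other genes.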

Additional observations from a re-analysis of the deposited data

Results flagged for a closer look

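Genes of these families for which the effect differed between *KEAP1* KO clones, by the moderated F test of limma, were *Mmp10* (largest log2 difference between clone means 2.13), *Mmp3* (2.01), *Mmp1b* (1.82), *Adam8* (2.16), *Adam23* (2.06) and *Adamts1* (1.12). The effects against LL2 WT differed between the *KEAP1* KO clones and *NRF2* KO, by the contrast of the clone mean with *NRF2* KO, for *Mmp10* (log2 difference 3.62), *Mmp13* (2.73), *Mmp9* (2.26), *Adam8* (2.22) and *Mmp1b* (1.57), which were higher in *KEAP1* KO, and for *Adam5* (−2.61), *Adamts9* (−2.56), *Adam19* (−1.95) and *Adamts10* (−1.58), which were lower. For *Adam8* and *Mmp1b* the samples of *KEAP1* KO #1 overlapped those of *NRF2* KO, so the higher mean came from *KEAP1* KO #2 and #3. Groups of 3 samples are too small for a test of single outlying samples.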

How the results depend on the processing

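Numbers of called genes out of 35 moved by over 1.5 times in these cases. In *KEAP1* KO #1 (8 called) 4 were called with only the lines compared and 13 with the replicate block or with replicate 3 as a batch. In *NRF2* KO (0 called) 1 was called with a pseudocount of 0.5 CPM or quantile normalization (*Adam23*), and 3 with the block or the batch (*Adam23*, *Mmp13* and *Mmp19*). Against *NRF2* KO, the *KEAP1* KO clones (9 called) had 5 with a pseudocount of 1 CPM. On leaving out 1 sample the counts ran from 6 to 10 in *KEAP1* KO #1, 7 to 13 in *KEAP1* KO #2 (11 called, 7 without its replicate 1), 9 to 13 in *KEAP1* KO #3 (10 called), 0 to 1 in *NRF2* KO (1 without LL2 WT replicate 2), 9 to 12 against *NRF2* KO and 4 to 7 between clones (6 called). The share of all genes called under these settings is not shown here. The counts thus do not tell whether these genes moved more than other genes. The cause was not tested. With 0.5 or 2 CPM in place of 1 CPM, 30 or 19 of the 79 genes were counted as expressed instead of 26. The sign of *Timp2* turned with replicates 1 and 2 alone, chosen after seeing the data (−0.11, −0.12 and −0.21 in *KEAP1* KO #1, #2 and #3), in *KEAP1* KO #2 with median-ratio rescaling (−0.012) and quantile normalization (−0.073), and on leaving out 1 sample, with lowest and highest values of −0.20 and 0.52, −0.41 and 0.32, and −0.34 and 0.38 in the 3 clones. Same-numbered samples of different lines had a median r of 0.28 over 30 pairs, with 22 over 0.1, against −0.19 for different numbers, so the replicate numbers do not pair all samples. Pairs of replicate 3 samples all lay between 0.42 and 0.63, and pairs of replicate 3 with replicate 1 or 2 of another line all lay below 0. Replicate 3 thus departed in a like way in all 5 lines, and the main model holds no term for it. With the block *Mmp9*, *Mmp11*, *Mmp19*, *Adam8* and *Timp3* gained a call in *KEAP1* KO #1, *Mmp19* in *KEAP1* KO #2, and *Mmp11* and *Mmp28* in *KEAP1* KO #3. For *KEAP1* KO #1 the median over all genes tested was 0.11 on the log2 scale as deposited and 0.01 after rescaling. Unknown depth limits all values near the floor.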

Other observations

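Of the genes that were not tested, *Mmp15*, a membrane-type MMP gene, had the highest line mean, 0.415 CPM in *NRF2* KO, with samples at 0.283, 0.706 and 0.256 CPM. All 3 were above the LL2 WT samples (0.1001, 0.164 and 0.163 CPM) and the *KEAP1* KO samples (0.0867 to 0.251 CPM). The difference was not tested. *Mmp25*, another membrane-type gene, lay between 0.0116 and 0.179 CPM in all 15 samples, and *Mmp16* between 0.0293 and 0.343 CPM.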
